A study of Mus musculus with 28 samples.

Results

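Long-term haematopoietic stem cells (LT-HSC) that descended from young Mx1-Cre control donors were compared after they had lived in old or in young recipients. The comparison rests on 7 of the 28 libraries of the series, namely those titled Old-Control-LTHSC (3 libraries) and Young-Control-LTHSC (4 libraries), and covers all genes. In both groups the donor marrow was Mx1-Cre, a Cre recombinase transgene under the interferon-responsive Mx1 promoter, and came from young donors. Both groups were C57BL/6 by label, the recipients were CD45.1 mice, and the cells were taken back from bone marrow 4 months after the transplant, so the groups differed by label only in the age of the recipient. The ages in weeks or months, the sorting gate and whether the transgene had been induced were not given in the labels. Each old library named 2 recipients and each young library 1, so pooling of animals and recipient age cannot be told apart. The other libraries used below were LT-HSC of Dnmt3a-mutant donors (4 from old and 2 from young recipients, the mutant allele not described) and control MPP3, a myeloid-biased multipotent progenitor population (4 from old and 4 from young recipients).

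LT-HSC sit at the top of the blood hierarchy. They divide rarely, are held in the marrow by stromal signals such as stem cell factor and CXCL12, and replenish all blood lineages after transplantation. With age the marrow becomes more inflammatory and the stem cell pool shifts towards myeloid and platelet output. A transplant of young cells into an old host separates the age of the surroundings from the age of the cell.

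The old libraries held 5.59 to 6.11 M counts and the young ones 6.13 to 8.45 M, with no overlap, and 12244 to 13707 genes had a count in old against 13229 to 15572 in young libraries. Mitochondrial genes took 14.4 to 20.1% of counts in old and 14.7 to 24.9% in young libraries. The labels name no batch. Sample sheet numbers in the table's column names were read as 2 pools, an inference that the labels do not state, and each inferred pool held old and young libraries (old replicate 2 and young replicates 1 and 2 in pool 1, the other 4 in pool 2). Library-to-library correlations of log2(CPM + 2) across genes had a median of 0.724 among old, 0.812 among young and 0.758 between old and young libraries. CPM here are counts per M counts after TMM scaling.

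The cells carried the transcripts that define LT-HSC. Slamf1 (CD150), Procr (EPCR), Hlf, Mecom and Fgd5 had counts in all 7 libraries, and Hoxb5 had none in 2 of the old ones. Cd48, a surface protein that LT-HSC lack, had no count in 5 libraries and 39 and 102 counts in old replicate 2 and young replicate 2. The other multipotent progenitor markers looked up had counts in all 7 libraries. They were Flt3 (40.6 to 83.7 CPM), Cd34 (50 to 168 CPM) and Mpo (0.527 to 232 CPM). Of the markers of other cells, Cd3e, Ncr1, C1qb, Sdc1, Col1a1, Cdh5, Mcpt8 and Prss34 were at 0 in all 7 libraries. Other markers of the same cell types had counts. Nkg7 (up to 234 CPM), Cd68 (up to 36.5 CPM) and Lepr (up to 29.3 CPM) had counts in all 7 libraries. Cd3d, Cd8a and Igkc were at 0 in 1 library each, and Igkc had 211 counts in old replicate 3. Adgre1 had 79 and Cpa3 108 counts in old replicate 2. Erythroid and neutrophil transcripts were present, and Hbb-bs, a beta globin, ranged from 719 to 4231 counts in old and from 22 to 3087 in young libraries.

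No gene passed the test for recipient age. Of 14588 genes tested with edgeR's quasi-likelihood test, 0 (0%) had a Benjamini-Hochberg adjusted p under 0.05, and the smallest adjusted p was 0.773. At an unadjusted p under 0.05 there were 889 genes (6.09%), 363 higher (2.49%) and 526 lower (3.61%) in old recipients. The common biological coefficient of variation of the fit was 1.17, a value shared by all genes over the 13 LT-HSC libraries, mutant ones included. The level of a gene with this spread varies between libraries of a group by about its own size. Single genes can vary less or more. The same counts gave 146 calls with DESeq2's Wald test (35 higher, 111 lower, 75 of them with a group at 0 counts) and 1 with limma-voom (the mitochondrial ribosomal RNA mt-Rnr1, lower). By edgeR mt-Rnr1 differed by -0.07 on the log2 scale (SE 0.35, adjusted p = 0.989). The genes below are therefore described by their levels, and none of them is a call of the edgeR test.

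In 366 genes (2.51%) all 3 old libraries lay above all 4 young ones, and in 639 (4.38%) they all lay below. At least 93 of the 639 had no count in any old library, and at least 7 of the 366 had none in any young library. The part of the lower depth of the old libraries in this was not tested. The 10 non-overlapping genes with the smallest p in each direction, among named genes of at least 10 CPM on average, were used to see what stood apart most clearly. All 20 had an adjusted p of 0.773. DESeq2 called 17 of them, among its 146 calls over all genes. The 20 were picked for a small p in the same counts, so these calls are no independent support. They were picked from this comparison, so their values are a description. They are ordered below by role for reading, and no role was tested for being over-represented among them.

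Trp53 was among the 10 higher genes, and Mtor and Pik3cd were among the 10 lower ones. Trp53 (ENSMUSG00000059552, chr11:69580359-69591873 on GRCm38) encodes p53, the stress-activated transcription factor that restrains division of stem cells. Its level was 308, 905 and 645 CPM in old and 208, 209.9, 173 and 181 CPM in young recipients, a log2 change (old minus young, ± SE) of 1.68 ± 0.38. All old libraries were above the young ones, old replicate 1 by the smallest margin, and the young libraries lay close together. Mtor (ENSMUSG00000028991, chr4:148448611-148557683) encodes the kinase that couples nutrients and growth factors to protein synthesis. It stood at 29.4, 16.2 and 22.8 CPM in old and 83.8, 234, 103 and 99.8 CPM in young recipients, a log2 change of -2.51 ± 0.66. The old libraries formed a narrow low band, and young replicate 2 was the highest. Pik3cd (ENSMUSG00000039936, chr4:149649168-149702571), the leukocyte PI3-kinase catalytic subunit p110delta, acts upstream of mTOR. It measured 3.82, 7.69 and 13.8 CPM in old and 64, 52.5, 50.7 and 79.2 CPM in young recipients, a log2 change of -2.87 ± 0.66. Here the highest old library was still well below the lowest young one.

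Wee1, Anapc5, Ciz1 and Sprtn were also among the 20. Wee1, the kinase that holds CDK1 inactive before mitosis, had 8.8, 5.24 and 29.5 CPM in old and 31.5, 54.7, 241 and 133 CPM in young recipients (log2 change -2.99 ± 0.84). Old replicate 3 and young replicate 1 almost met. Anapc5, a subunit of the ubiquitin ligase that ends mitosis, had 167, 186 and 264 CPM against 103, 66.7, 82.2 and 101 (log2 change 1.22 ± 0.35). Ciz1, a nuclear matrix protein of DNA replication that also binds p21, had 225, 345 and 181 CPM against 116, 73, 83.2 and 59.4 (log2 change 1.59 ± 0.40). Both were higher in every old library. Sprtn, the protease that removes proteins crosslinked to DNA, was detected in 1 old library only, with 2 counts, and in all young ones at 25.8, 3.56, 47.4 and 20.8 CPM. Its young to old ratio was 193 (95% interval 53.4 to 1600), where the interval covers counting error only.

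Pfn1, Whamm, Cttn, Trim30a and Mov10 were 5 more of the 20. Pfn1, profilin, which feeds actin monomers to growing filaments, measured 470.5, 647 and 782 CPM in old and 444, 228, 215 and 251 CPM in young recipients (log2 change 1.15 ± 0.33), and Whamm, a nucleation factor for actin on internal membranes, 21.6, 38.3 and 129 against 9.18, 3.76, 4.24 and 7.96 (log2 change 3.32 ± 0.83). Cttn, cortactin, which stabilises branched actin, went the other way at 1.49, 0.818 and 0.575 CPM against 8.23, 22.2, 28.9 and 39.7 (log2 change -4.66 ± 1.22). For Pfn1 old replicate 1 and young replicate 1 were close, whereas for Cttn a wide gap separated the groups. Trim30a (ENSMUSG00000030921, chr7:104409025-104465193), an interferon-induced TRIM protein that dampens NF-kB signalling, had 17.1, 14.1 and 11.3 CPM in old and 83.5, 115, 92.6 and 129.9 CPM in young recipients (log2 change -2.89 ± 0.70). Mov10, an RNA helicase that restrains retroelements, had 5.97, 0.654 and 4.21 CPM against 49.2, 69.8, 26.5 and 38 (log2 change -3.66 ± 0.90). Neither gene had an old library near the young ones.

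The remaining genes of the 20 had diverse roles. Tpd52l2, of the tumour protein D52 family of vesicle proteins, had 51.8, 358 and 281 CPM in old and 48.9, 20.5, 19.9 and 44.3 CPM in young recipients, and old replicate 1 was almost level with young replicate 1. Mfsd5, a membrane transporter, had 215, 203 and 141 CPM against 10.8, 24.8, 3.14 and 6.74, with a broad gap between the groups. Tmem231, a protein of the base of the cilium, had 12.8, 16 and 179 CPM against 0.316, 0.102, 0 and 0.153, and old replicate 3 was far above the other 2 old libraries. Crlf3, a cytokine receptor-like factor, had 29.4, 24.7 and 23.6 CPM against 96.2, 96.9, 72.3 and 81 and was tight within each group. Spr, which makes the cofactor tetrahydrobiopterin, had 1 count over the old libraries and 7.91, 1.73, 171 and 2.14 CPM in young recipients, a young to old ratio of 644 (95% interval 115 to 25450). Young replicate 3 held most of it, and without that library the ratio was 71.2 (12.5 to 2838). Ppfibp2, a liprin scaffold, had no count in any old library and 11.8, 10.8, 102 and 3.67 CPM in young ones, which puts it at least 61.8-fold lower in old recipients when 3 counts per library are taken as the floor. Without young replicate 3 the bound was 16.8-fold. Nkg7, a granule membrane protein of cytotoxic lymphocytes, had 50.8, 234 and 36.6 CPM in old and 11, 2.75, 2.04 and 6.28 CPM in young recipients. It was also abundant in control MPP3, at 97.5 to 208 CPM in old and 197 to 371 CPM in young recipients. Ly6c2, a surface antigen of monocytes and granulocytes, had 0.166, 74.8 and 110.5 CPM against 0, 0, 0 and 0.153, that is, 1 count in 1 young library. Its old to young ratio was 1921 (95% interval 344 to 75960), carried by old replicates 2 and 3, since old replicate 1 had a single count too, and without old replicate 3 it was 1216 (217 to 48130).

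**Figure D1:**
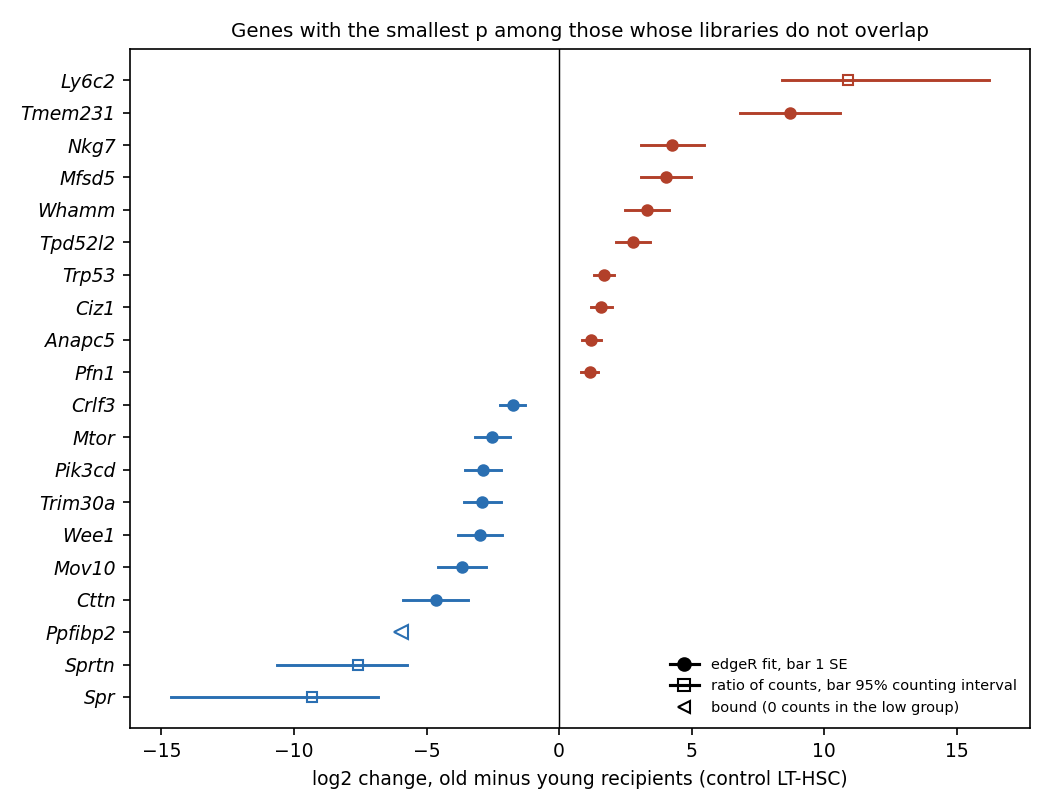
The 20 genes with the smallest p among those whose old and young control LT-HSC libraries did not overlap, plotted as the log2 change of old minus young recipients. Filled circles are edgeR estimates with 1 SE, open squares are ratios of counts with a 95% counting interval for genes with 1 to 3 counts in the low group, and the open triangle is a bound for Ppfibp2. Changes run from 1.15 (Pfn1) upwards and from -1.74 (Crlf3) downwards.

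The same genes were set beside the other 2 comparisons of recipient age, which use none of the 7 libraries, although control LT-HSC and MPP3 libraries came from the same animals, which the fit over both cell types does not model. In Dnmt3a-mutant LT-HSC, where 55.7% of all tested genes had a log2 change above 0 and 6.46% an unadjusted p under 0.05, 6 of the 10 genes higher in old control recipients were also higher, and 1 of the 10 lower ones was also lower. In control MPP3, where these shares were 47.1% and 4.79%, the counts were 6 of 10 and 2 of 10. Pik3cd measured 60.2 to 287 CPM in old and 21.3 to 30.5 CPM in young recipients of mutant LT-HSC, so the order of the groups there was the opposite of that in control cells. Its log2 change was 2.62 ± 0.77 in mutant LT-HSC and 0.37 ± 0.47 in control MPP3. For Trp53 the changes were -0.21 ± 0.43 in mutant LT-HSC and 0.52 ± 0.34 in control MPP3, and for Mtor 0.12 ± 0.69 and 0.07 ± 0.48. The differences of these changes from those in control LT-HSC did not pass the test for any gene. Of 14588 genes 0 (0%) were called for recipient age by genotype, with 1149 (7.88%) at an unadjusted p under 0.05 and a smallest adjusted p of 0.618. Of 16309 genes 0 (0%) were called for recipient age by cell type, with 1479 (9.07%) at an unadjusted p under 0.05 and a smallest adjusted p of 0.471. When only the control libraries were fitted, 1 gene, Ly6c2, was called for recipient age by cell type by edgeR (adjusted p = 0.0362). DESeq2's Wald test, on the libraries of the edgeR fits, called 261 genes by genotype and 296 by cell type.

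**Figure D2:**
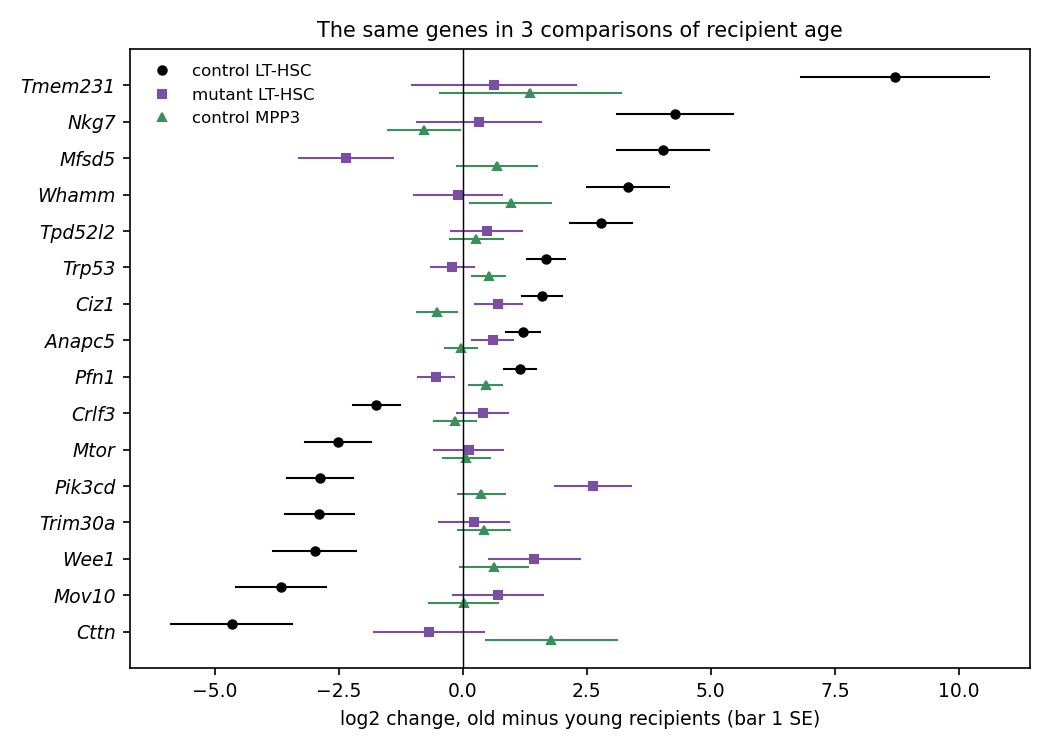
Log2 change of old minus young recipients (bar, 1 SE) in control LT-HSC (circles), Dnmt3a-mutant LT-HSC (squares) and control MPP3 (triangles), for those of the 20 genes that had more than 3 counts in both control LT-HSC groups. Circles lie far from 0 because the genes were picked on them, and squares and triangles lie on both sides of 0.

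The comparison was widened to all genes whose control LT-HSC libraries did not overlap. Of the 366 genes that were higher in old recipients, 57.1% had a log2 change above 0 in mutant LT-HSC, against 55.67% of all tested genes, and 44.81% in control MPP3, against 47.13% of all. Of the 639 that were lower, 46.48% had a log2 change below 0 in mutant LT-HSC, against 44.33% of all, and 51.8% in control MPP3, against 51.5%. All 4 shares were near those of all genes.

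Among the gene groups, mature neutrophil genes stood furthest from 0. Of 18 listed genes 17 were tested, and all 17 had a higher estimate in old recipients, against 49.1% of all tested genes. Their median log2 change was 5.58, or 4.67 when the 3 genes with no count in young recipients are set to their bound, against a median of -0.01 over all genes. At an unadjusted p under 0.05 there were 10 of the 17, against 2.49% of genes higher in old. Several of these genes entered the test through the libraries in which they are high, old mutant ones included, so the counts describe the list and are no test of it. Ly6g, the surface antigen used to sort neutrophils, had no count in any of the 7 libraries.

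S100a9 and S100a8 encode calprotectin, the main cytosolic protein of neutrophils. S100a9 (ENSMUSG00000056071, chr3:90692632-90695721) had 23.9, 336 and 211 CPM in old and 0, 1.53, 0.314 and 3.37 CPM in young recipients (log2 change 7.20 ± 2.06). S100a8 had 4.98, 188 and 192 CPM in old and 0.105, 10.5, 0 and 9.49 CPM in young recipients (log2 change 4.67 ± 1.88). All old libraries exceeded all young ones for S100a9, while for S100a8 old replicate 1 lay below young replicates 2 and 4. The secondary granule proteins Ltf (lactoferrin), Lcn2 (lipocalin 2), Ngp and Camp (cathelicidin) belong to late granulocyte maturation. Ltf (ENSMUSG00000032496, chr9:111019271-111042767) had 9.63, 48.8 and 55.1 CPM in old recipients and no count in young ones, which is at least 97.7-fold higher. Lcn2 had 4.15, 194 and 102 CPM against 0, 0.407, 0 and 0 (log2 change 9.53 ± 3.01), and Ngp 15.9, 519 and 73 against 0, 0.407, 0 and 7.66 (log2 change 6.68 ± 2.74). Ltf, Lcn2 and Ngp were present in all old libraries, and replicate 1 had the least of each. Camp, with 0, 19.8 and 6.89 CPM in old recipients and no count in young ones, was at least 23-fold higher, and old replicate 1 had none. Without old replicate 2 the bound for Camp was 8.9-fold. Retnlg, a resistin-like protein of neutrophils, had 8.96, 96 and 30.6 CPM against 0, 1.42, 0 and 0, and Chil3, a chitinase-like protein of neutrophils and macrophages, 0, 134 and 93.3 against 0, 1.12, 0.157 and 1.23. Old replicate 1 had no Chil3, so the groups overlapped for it.

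**Figure D3:**
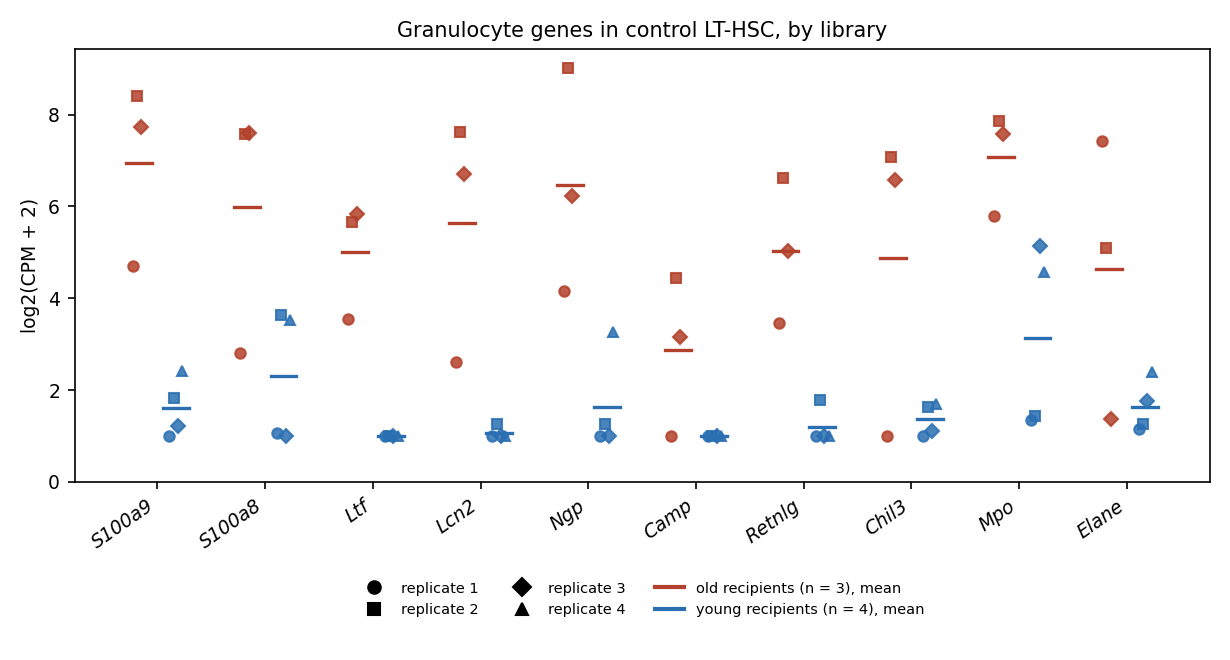
Levels of 8 neutrophil genes and of Mpo and Elane in each control LT-HSC library, as log2(CPM + 2), with old recipients in red and young in blue, marker shape giving the replicate and bars the group mean. Old replicates 2 and 3 are high for the 8 neutrophil genes and old replicate 1 is the lowest old library for each of them, while for Elane old replicate 1 is the highest.

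Taken as a sum, the 6 marker genes S100a8, S100a9, Ltf, Ngp, Camp and Lcn2 held 61.2, 1305 and 598 counts per M in old and 0.128, 14.9, 0.293 and 21.9 counts per M in young recipients. For this sum the groups did not overlap, and they did not overlap within inferred pool 1 (1305 against 0.128 and 14.9) or within inferred pool 2 (61.2 and 598 against 0.293 and 21.9). Summed over all 18 listed neutrophil genes, the old libraries held 156.6, 2101 and 1162 counts per M. The young libraries held 157.2, 180.8, 224.1 and 155.3, so the groups overlapped through old replicate 1. In bulk RNA, more cells of a type and more RNA per cell cannot be told apart. The sum of the 6 marker genes ranged from 7.78 to 10200 counts per M in old and from 0.214 to 1.2 in young mutant LT-HSC. In control MPP3 it ranged from 23.0 to 145 in old and from 10 to 557 in young recipients. The neutrophil list had a higher estimate in old recipients for 17 of 17 genes in mutant LT-HSC and for 4 of 17 in control MPP3. Over the 11 settings run for the lists, leaving out each library in turn among them, the median log2 change of the list lay between 4.47 and 6.71.

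Upstream sequences of S100a9 and Ltf are shown as examples of genes that were higher in every old library and share a short sequence. The same held for Lcn2 and Ngp, whose sequences are not shown. C/EBP factors drive granule genes during granulocyte maturation. Their binding sequence was searched as TTGCNNAA on both strands (on the other strand it reads TTNNGCAA), in the 250 bases before each gene's start in RefSeq on GRCm38.p6. The 6 marker genes all had an entry, and 4 of them (S100a9, Ltf, Ngp and Lcn2) had a match, against 10.8% of 27025 genes with an entry. GENCODE M21 starts 5 of the 6 genes earlier than RefSeq, so that 250 bases of the Lcn2 window, 161 of the Camp, 93 of the S100a8, 61 of the Ngp and 21 of the Ltf window lie inside the gene by that annotation, and 0 of the S100a9 window. The search was chosen after the levels were seen, and a match is a description of letters, not of a site. Matches are in capitals, 5′ to 3′ on the strand of the gene, at chr3:90695722-90695971 (minus strand) for S100a9 and chr9:111019042-111019291 (plus) for Ltf.
S100a9: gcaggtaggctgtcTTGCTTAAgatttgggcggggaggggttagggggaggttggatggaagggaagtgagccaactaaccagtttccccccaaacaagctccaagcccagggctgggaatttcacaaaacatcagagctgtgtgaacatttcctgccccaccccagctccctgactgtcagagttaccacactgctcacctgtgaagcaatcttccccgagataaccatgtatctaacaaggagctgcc
Ltf: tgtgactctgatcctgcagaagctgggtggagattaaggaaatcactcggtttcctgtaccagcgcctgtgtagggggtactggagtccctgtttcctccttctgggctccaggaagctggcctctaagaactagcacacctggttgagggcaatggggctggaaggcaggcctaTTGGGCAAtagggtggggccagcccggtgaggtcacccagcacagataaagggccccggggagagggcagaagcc
The letters of Ltf ended 67 bases and those of S100a9 228 bases before the RefSeq start. S100a8 and Camp had no match in their windows.

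Other myeloid genes were more often higher than lower, with smaller changes. Of 23 tested myeloid genes (26 listed) 15 were higher and 8 lower, with a median log2 change of 1.07 (0.54 to 1.68 over the same 11 settings). Mpo, the azurophil granule peroxidase of promyelocytes, had 53.8, 232 and 189.8 CPM in old and 0.527, 0.712, 33.3 and 21.9 CPM in young recipients (log2 change 3.50 ± 1.99), and every old library was above every young one. Elane, neutrophil elastase of the same granules, had 169, 32.2 and 0.575 against 0.211, 0.407, 1.41 and 3.22 (log2 change 5.71 ± 2.30), and old replicate 3 lay among the young libraries. Itgam (CD11b) had 3.65, 64.5 and 92.1 CPM against 2.74, 5.7, 0 and 15.3, and Ccr2, the receptor that draws monocytes out of the marrow, 0, 7.85 and 58.4 against 0.105, 0.814, 0.314 and 0. For Itgam and Ccr2 old replicates 2 and 3 were the highest of the 7 and old replicate 1 was level with the young libraries. Of 14 monocyte and macrophage genes 10 were higher and 2 lower, with a median of 0.91 (0.37 to 1.19). The summed level of the myeloid list was 908, 1404 and 1221 counts per M in old and 659, 666, 600.5 and 461 in young libraries, and that of the monocyte list 114.5, 192, 266 and 85.9, 80.9, 92.9, 99.7. Both were higher in every old library, and old replicates 2 and 3, which led the neutrophil genes, were the highest. The part of neutrophil RNA in these values was not tested.

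LT-HSC identity genes leaned the other way. Of 40 tested genes 27 were lower and 13 higher in old recipients, against 50.4% of all tested genes lower, with a median log2 change of -0.32. None passed the test. At an unadjusted p under 0.05 there were 6 lower and 0 higher, against 3.61% and 2.49% of all genes. The median lay between -0.62 and -0.19 over the 11 settings run. The summed level of the list was 7817, 6677 and 7584 counts per M in old libraries. In young libraries it was 9486, 9557, 8693 and 7379, so the groups overlapped through young replicate 4. The lean was not seen in the other 2 comparisons of recipient age. In mutant LT-HSC 21 of the 40 genes were higher (median 0.05), against 55.7% of all genes. In control MPP3 22 of 40 were higher (median 0.18), against 47.1% of all.

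Msi2 (ENSMUSG00000069769, chr11:88339382-88718513), an RNA-binding protein that sustains stem cell self-renewal, was among the most abundant. It had 721, 619.5 and 517 CPM in old and 842, 1295, 1283 and 1113 CPM in young recipients (log2 change -0.87 ± 0.28). Mllt3 (chr4:87769925-88033364), a chromatin reader that maintains stem cell programmes, had 99.2, 119 and 54.2 CPM against 292, 313, 218 and 157 (log2 change -1.43 ± 0.59). The old libraries of both were below all young ones. Hoxb5 (chr11:96303336-96306121), a homeobox gene whose expression marks the most durable LT-HSC, had 0.664, 0 and 0 CPM against 31.9, 30.8, 5.33 and 1.23 (log2 change -6.17 ± 2.43). Young replicates 1 and 2 held most of it, and the lowest young library was only just above old replicate 1. Ifitm1, a small membrane protein of the interferon-induced family that LT-HSC express at rest, had 51.5, 46.5 and 29.1 CPM against 132, 105, 105 and 86.1 (log2 change -1.34 ± 0.57), without overlap. Angpt1, the ligand of the Tie2 receptor, had 451, 452 and 468 CPM against 529, 618, 480.2 and 564. Its groups did not overlap either, but its change of -0.26 ± 0.35 was small and within 1 SE of 0. Nkx2-3, a homeobox gene, had 0.332, 3.93 and 0.575 CPM against 21, 34.1, 13 and 1.99, and Ndn, a growth suppressor, no count in old recipients and 2.21, 1.32, 84.1 and 0 CPM in young ones. Young replicate 4 overlapped the old libraries for Nkx2-3 and Ndn.

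The genes most used to recognise LT-HSC overlapped between the groups. Slamf1 had 57.9, 31.4 and 30.4 CPM in old and 63.4, 93, 47.2 and 61 CPM in young recipients (log2 change -0.73 ± 0.74). Hlf, a transcription factor of the self-renewal programme, had 902, 506 and 531 against 742, 1208, 964 and 779 (log2 change -0.51 ± 0.35), and Fgd5 6.8, 50.6 and 17.4 against 102, 17.1, 28.6 and 44.9 (log2 change -0.95 ± 1.10). Each of these overlapped, through old replicate 1 in Slamf1 and Hlf and through old replicates 2 and 3 in Fgd5. Procr (log2 change -0.74 ± 1.22), Mecom (-0.45 ± 0.59) and Kit, the stem cell factor receptor (-0.30 ± 0.38), had changes smaller than their SE. Gata2, a transcription factor of stem and mast cells, was the only listed gene with all old libraries above the young ones, at 499, 337 and 994 CPM against 337, 298, 333 and 324 (log2 change 0.92 ± 0.48), with old replicate 2 barely above the young libraries and old replicate 3 the highest.

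**Figure D4:**
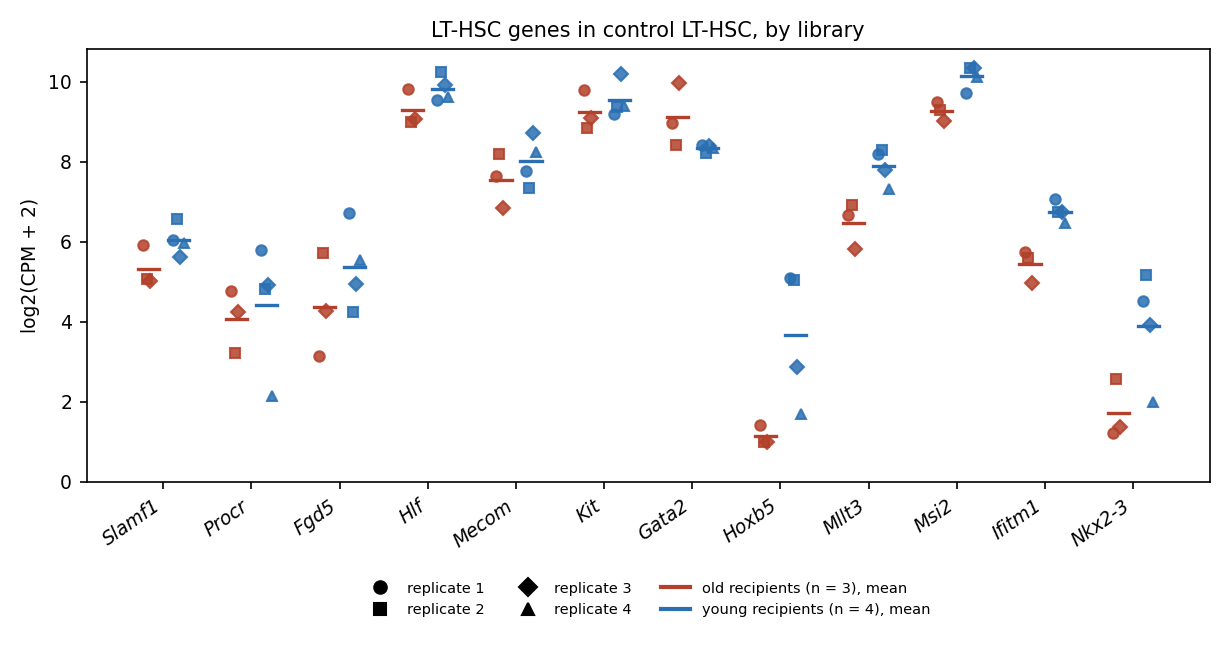
Levels of 12 LT-HSC genes in each control LT-HSC library, as log2(CPM + 2), with old recipients in red and young in blue, marker shape giving the replicate and bars the group mean. Msi2, Mllt3, Ifitm1 and Hoxb5 are lower in all old libraries, while Slamf1, Procr, Fgd5, Hlf, Mecom and Kit overlap.

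Genes known to rise with age inside LT-HSC had no common direction in control LT-HSC. Of 40 such genes 22 were higher and 18 lower in old recipients, with a median log2 change of 0.06 that ran from -0.08 to 0.16 over the 11 settings. In 1 of them all old libraries lay above the young ones, against 2.51% of all genes, and in 3 (Dsg2, Enpp5 and Mllt3, named after their values were seen) they all lay below, against 4.38%. Selp, the adhesion molecule P-selectin that marks aged stem cells, had 99.6, 265 and 155 CPM in old and 99.1, 51.2, 183 and 265 CPM in young recipients (log2 change 0.21 ± 0.57). Vwf, von Willebrand factor of platelet-biased stem cells, had 153, 94.6 and 195 against 229, 152, 97.6 and 80.4 (log2 change 0.08 ± 0.52), and Aldh1a1, an aldehyde dehydrogenase, 161, 65.6 and 179.8 against 115, 78.3, 121 and 68.6 (log2 change 0.50 ± 0.47). All 3 overlapped fully, and their directions depended on which libraries were used. Ehd3, an endosomal trafficking protein, was the one above, at 17.3, 172 and 24.9 CPM against 9.18, 8.44, 5.96 and 7.5 (log2 change 3.19 ± 1.56). Sbspon, a secreted matrix protein, reached 0.996, 138 and 0 CPM in old against 0.527, 0.102, 0.471 and 0 CPM in young recipients, and 1 old library carried its difference. Osmr, the oncostatin M receptor, had 15.4, 6.05 and 0 CPM in old recipients and no count in young ones (at least 18.5-fold higher, or 7.82-fold without old replicate 1), with old replicate 3 also at 0. Itgam is on this list too, and was high in the old libraries that led the neutrophil genes. In mutant LT-HSC 34 of the 40 genes were higher in old recipients (median 1.18), against 55.7% of all genes. In control MPP3 18 of 40 were higher, against 47.1% of all. The difference between these comparisons was not tested for the list.

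Tumour necrosis factor (TNF) signals through 2 receptors, TNFR1 and TNFR2, to NF-kB, and the title of the series names them. Of 19 tested TNF ligands, receptors and adaptors 14 were lower and 5 higher in old recipients, with a median log2 change of -0.45. The median was -0.09 when genes under a mean of 50 counts were left out, and the lowest of the 11 settings was -0.81. Tnf itself was near the limit of detection, at 0.332, 1.15 and 0 CPM in old and 2.74, 12.2, 0.157 and 0 CPM in young recipients (log2 change -2.89 ± 2.51). Tnfrsf1b, TNFR2, had 5.48, 55 and 17.8 against 29.7, 22.2, 19.4 and 115 (log2 change -0.83 ± 0.85), and Tnfrsf1a, TNFR1, 7.63, 10.3 and 153 against 20.9, 36.4, 37.3 and 33.7 (log2 change 0.82 ± 0.97). The estimate for Tnfrsf1a came from old replicate 3, and without that library it was -1.84. Of 42 target genes of TNF and NF-kB 22 were higher and 19 lower, with a median of 0.09 (-0.07 to 0.15). Nfkb1, the p105 precursor of NF-kB p50, had 20.4, 34.2 and 15.7 CPM in old and 114, 67, 64.3 and 44.6 CPM in young recipients (log2 change -1.63 ± 0.65), and Tnip1, an inhibitor of the pathway, 5.31, 2.45 and 0.575 against 23, 23.6, 9.26 and 136 (log2 change -4.10 ± 1.50). Both were lower in every old library. Plaur, the urokinase receptor, was higher in every old library, at 6.97, 37.8 and 20.1 CPM against 3.27, 0.203, 2.51 and 3.52 (log2 change 3.18 ± 1.34).

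Interferon response genes were split, with 23 higher and 31 lower of 54 and a median log2 change of -0.13 (-0.41 to -0.03 over the 11 settings). In 6 of them all old libraries lay below the young ones, against 4.38% of all genes, and in 1 they lay above. Trim30a belonged to the 6, and so did Oas3, an antiviral oligoadenylate synthetase, at 23.4, 31.9 and 24.5 CPM in old and 65.3, 53.2, 122 and 51.1 CPM in young recipients (log2 change -1.45 ± 0.59). Ifi44 had 21.7, 21.9 and 9.57 CPM against 52.2, 49.1, 39.1 and 37.1 (log2 change -1.32 ± 0.75), and Bst2 (tetherin) 1 count over the old libraries and 25.7, 8.75, 9.41 and 0.919 CPM in young ones. All 3 were without overlap, and the young to old ratio of Bst2 was 213 (95% interval 38.1 to 8447), and without young replicate 1 it was 116 (20.5 to 4613). Lgals3bp, a secreted galectin ligand, was the one listed gene with old libraries above the young ones, at 489, 545 and 276 CPM against 257, 215, 228 and 142 (log2 change 1.05 ± 0.41).

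Immediate-early genes, which are switched on within minutes of a signal or of handling, were higher in 21 of 30 cases, with a median log2 change of 0.37 (0.10 to 0.58). Nr4a1, an orphan nuclear receptor that favours quiescence, had 297, 484 and 442 CPM in old and 194, 174, 132 and 396 CPM in young recipients (log2 change 0.87 ± 0.38), and young replicate 4 reached into the old range. Egr1 had 911, 1449 and 933 CPM against 834, 819, 513 and 1213 (log2 change 0.38 ± 0.37) and overlapped. Btg2, an antiproliferative gene and p53 target, had 19.1, 85.4 and 106 against 17.6, 16.8, 0.157 and 16.5 (log2 change 2.46 ± 1.24), with all old libraries above the young ones. Of 13 heat shock genes 6 were higher and 7 lower, and the median lay between -0.34 and 0.06 over the settings. Hsph1, a chaperone, had 3.49, 34.7 and 27.4 CPM against 103, 126, 129 and 114 (log2 change -2.43 ± 0.71), lower in every old library.

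Cell cycle genes were balanced, with 37 higher and 34 lower of 71 and a median log2 change of 0.03 (-0.21 to 0.26 over the 11 settings). E2f8, a repressor of the E2F programme, had 77.7, 149.7 and 110.5 CPM in old and 29.4, 38.9, 16.2 and 9.8 CPM in young recipients (log2 change 2.25 ± 0.86), and Pola1, the catalytic subunit of DNA polymerase alpha, 111, 145 and 329 against 82.9, 118, 51.1 and 106 (log2 change 1.12 ± 0.49). E2f8 was higher in every old library, and for Pola1 old replicate 1 lay within the young range. Among 22 tested genes of the list of quiescence and cyclin-dependent kinase inhibitors 13 were higher and 9 lower (median 0.28, range -0.02 to 0.38). The list also holds the cyclins and kinases Ccnd1, Ccnd2, Ccnd3, Cdk4 and Cdk6. Its split therefore mixes opposite roles and does not describe quiescence. Cdkn1b, the inhibitor p27, had 21.6, 34.4 and 38.5 CPM in old and 68.2, 50.4, 113 and 101 CPM in young recipients (log2 change -1.40 ± 0.63), below in every old library. Cdk6, the kinase that governs exit from quiescence, had 396, 359.7 and 391 against 179, 258, 247 and 254 (log2 change 0.71 ± 0.38). It was above in every old library, and the 3 old libraries lay close together. The p53 response genes, which include direct targets of Trp53, were 9 higher and 8 lower of 17 with a median of 0.47, which ran from -0.101 to 0.485 and so did not keep its sign.

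The insulin-like growth factor and insulin pathway, which feeds PI3-kinase and mTOR, had 16 higher and 12 lower of 28 genes (median log2 change 0.19, range over the settings 0.0046 to 0.22). Igf1r, the IGF1 receptor, overlapped at 101, 50.4 and 82.9 CPM in old and 126, 57.2, 80.5 and 68 CPM in young recipients (log2 change -0.09 ± 0.44). Besides Pik3cd and Mtor, the adaptor Shc1 was lower in every old library, at 50.8, 15.1 and 2.11 CPM against 87.3, 76.1, 88.8 and 218 (log2 change -2.37 ± 0.92), whereas the adaptor Grb2 had 98.6, 176 and 462 against 34.6, 114, 90.1 and 24.7 (log2 change 1.90 ± 0.61). For Grb2 old replicate 1 lay below young replicate 2. Among 24 genes of DNA and histone methylation 12 were higher and 12 lower (median 0.03, range -0.26 to 0.08). Dnmt3a, intact in these control cells, had 118, 94.7 and 46.1 CPM in old and 129.7, 68.7, 87.5 and 85.3 CPM in young recipients (log2 change -0.11 ± 0.53), and the groups overlapped.

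Receptors and adhesion molecules that tie LT-HSC to the marrow were 23 higher and 17 lower of 40 receptors (median log2 change 0.08, range over the settings -0.135 to 0.238) and 17 higher and 7 lower of 25 adhesion genes (median 0.38, range 0.20 to 0.52). Bmpr1a, a receptor for bone morphogenetic proteins, had 21.7, 55.1 and 18.8 CPM in old and 3.38, 0.305, 4.86 and 1.53 CPM in young recipients (log2 change 3.66 ± 1.43) and was higher in every old library. Cd44, the hyaluronan receptor, had 195, 308 and 261 CPM against 172, 182, 174 and 109.5 (log2 change 0.67 ± 0.62), also without overlap. Itgal, the leukocyte integrin CD11a, had 0.664, 143 and 113 against 9.39, 2.95, 5.65 and 4.13 (log2 change 3.95 ± 1.75), and old replicate 1 had less of it than any young library. Itgal was high in the same 2 old libraries as the neutrophil genes.

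Genes of other lineages varied between single libraries. Of 30 megakaryocyte and erythroid genes 18 were higher and 12 lower (median log2 change 0.34, range over the settings -0.20 to 0.58). Pf4, platelet factor 4, had 48.8, 33.2 and 446 CPM in old and 29.2, 21.8, 14 and 3.83 CPM in young recipients (log2 change 3.35 ± 1.19), and Klf1, the erythroid master regulator, 1.83, 0 and 95.2 CPM against no count, at least 83.5-fold higher. Old replicate 3 held most of both, and without it the bound for Klf1 was 2.36-fold. Lymphoid progenitor genes were 11 higher and 6 lower of 17 (median 0.25, range -0.495 to 0.573), and plasma cell and B cell genes 9 higher and 5 lower of 15 (median 0.73, range -0.29 to 1.54). Multipotent progenitor genes were 9 higher and 4 lower of 13 (median 0.61, range 0.35 to 0.75), and stromal and endothelial genes 6 higher and 3 lower of 9 (median 0.79, range 0.07 to 0.79). Of 6 tested T cell and NK cell genes 2 were higher, Nkg7 among them, and 4 lower, and the median ran from -1.82 to 0.835. Of 4 tested mast cell and basophil genes 2 were higher and 2 lower, with a median of -0.21 as fitted and 0.46 with bounds, and the fitted median ran from -0.97 to 0.50. Of the 24 lists 13 had medians on both sides of 0 over the 11 settings, so no direction is given for those lists as a whole.

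**Figure D5:**
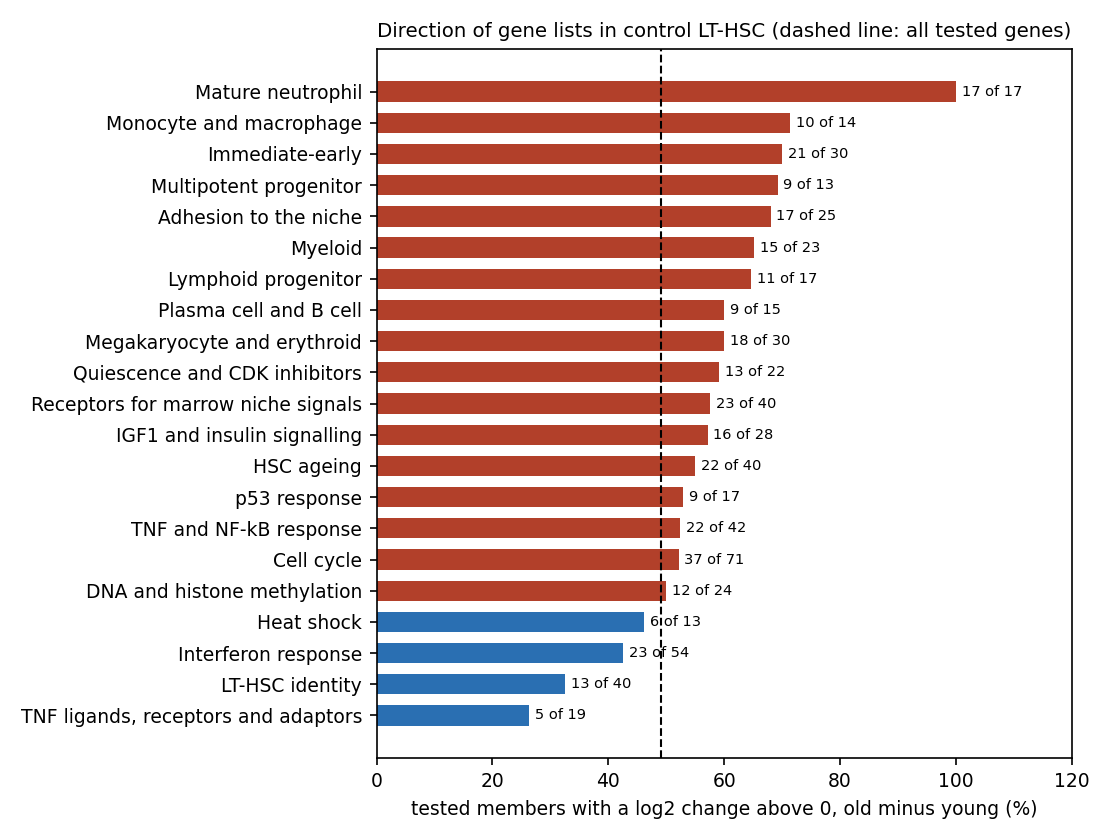
Share of tested genes with a log2 change above 0 (old minus young recipients) for the 21 gene lists with at least 10 tested genes, with counts beside the bars and a dashed line at the share over all tested genes, 49.1%. The mature neutrophil list is at the top with 17 of 17, and TNF ligands, receptors and adaptors (5 of 19) and LT-HSC identity (13 of 40) are at the bottom.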

How the data were processed

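RNA abundance was measured by RNA sequencing of polyadenylated RNA, extracted with a column kit for small samples per the labels' protocols. The authors deposited 1 table of whole-number read counts per gene, not normalized, with 38924 rows. Per the submitters' processing notes RSEM 1.2.12, Bowtie2 2.2.0, SAMtools 0.1.18 and edgeR 3.5.3 were used and the build was GRCm38, with no role or order given, and the strand setting is not given in the sources used here. Reads from overlapping, antisense or near-identical genes therefore may be shared, and S100a8 and S100a9, Ly6c2 and the globin genes have close relatives. Symbols and positions came from GENCODE M21, which named 37607 rows (96.62%, holding 99.21% of counts). All columns were matched to samples by title.

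The 13 LT-HSC libraries were fitted together, with 1 coefficient per group, in edgeR 4.0.16 (R 4.3.3) with filterByExpr, TMM scaling, estimateDisp, robust glmQLFit and 2-sided glmQLFTest, and p-values were adjusted by Benjamini-Hochberg over all 14588 genes at a threshold of 0.05. Comparisons with MPP3 used all 28 libraries. The procedure was tested on simulated data with known changes. It recovered nearly all of them at a low spread between libraries, and few at the spread of these libraries. Intervals and floors (3 counts per library) cover counting error only, and depth was 5.59 to 8.45 M counts. DESeq2 1.42.0, limma 3.58.1 and the other alternatives are under the closing section. Same replicate numbers in old and young control LT-HSC stood for different animals (correlation of deviations from group means, -0.02 to 0.03). They therefore do not pair the old with the young libraries. No libraries agreed within sampling noise.

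The groups, the 24 gene lists and the rules were chosen with earlier results of these data known. Named genes were any with an adjusted p under 0.05, the 10 higher and 10 lower genes with the smallest p that did not overlap and averaged at least 10 CPM, a panel (Dnmt3a, Tnf, Tnfrsf1a, Tnfrsf1b, Igf1r), and the 2 most abundant and 2 smallest-p genes of each list. From the last set a choice is printed. It was made, like that of other list genes, after their values were seen. Some genes are not reported here.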

Additional observations from a re-analysis of the deposited data

Results flagged for a closer look

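Among 86 values examined over the 4 young control LT-HSC libraries, 8 had a library far from the other 3, on the log2(CPM + 2) scale. Chance gives this for about 1 group in 20 when values are normally distributed. That rate does not hold for Lcn2, Retnlg and Ly6c2, where the other 3 young libraries were at 0 and any count is flagged. Young replicate 2 had the highest Lcn2 (0.407 CPM) and Retnlg (1.42 CPM), and young replicate 4 the highest Ngp (7.66 CPM) and Ly6c2 (0.153 CPM). All were below every old library of the same gene in CPM. For Ly6c2 both young replicate 4 and old replicate 1 had 1 count, so their counts do not differ. Young replicate 4 was also the highest for Shc1 (218 CPM) and the lowest for Cd44 (109.5 CPM). Young replicate 3 was the lowest for Btg2 (0.157 CPM) and young replicate 1 the lowest for Cdk6 (179 CPM). Groups of 3, such as the old recipients, were not examined in this way.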

How the results depend on the processing

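With edgeR the number of called genes was 0 for recipient age, for recipient age by genotype and for recipient age by cell type under size-factor scaling, no filter, a mean of at least 50 counts, thinning to the lowest total, leaving out mitochondrial genes and Gm42418, the inferred pool as a covariate, and without each control LT-HSC replicate in turn (0 to 0). The replicate block also left 0 calls for all 3. Its numbers pair no animals between old and young recipients. Across LT-HSC and MPP3 they match the same animals in some groups and not in others. Exceptions were DESeq2's Wald test (146, 261 and 296 calls), limma-voom (1 call for recipient age, mt-Rnr1, and 3 by cell type, namely Tcf19, ENSMUSG00000073719 and Gm26640), and the fit of only the control libraries (1 by cell type, Ly6c2). The cause was not tested. Of 1505 log2 changes of 80 named genes under the alternatives 1480 kept their direction and 25 in 10 genes did not. By limma-voom Tnfrsf1a was -0.519, and under the replicate block Tnfrsf1a was -0.352, Vwf -0.127 and mt-Rnr1 0.109. Within inferred pool 1 Aldh1a1 was -0.588, Tnfrsf1b 1.05, Tnfrsf1a -1.5, Mecom 0.609 and Vwf -1.04. Within inferred pool 2 Procr was 0.465, Selp -0.808 and Igf1r 0.317. Leaving out 1 replicate at a time gave the ranges -0.254 to 0.621 for Selp, -0.236 to 0.199 for mt-Rnr1, -0.314 to 0.179 for Igf1r, -1.84 to 1.34 for Tnfrsf1a, -0.398 to 0.196 for Dnmt3a, -0.174 to 0.418 for Vwf and -2.02 to 0.121 for Tnfrsf1b. The median log2 change of 13 of the 24 gene lists lay on both sides of 0 over 11 settings. Thinning to the lowest total left 0 calls, and what more libraries or counts would show was not tested.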
